A study of Mus musculus with 6 samples.

Results

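The genes described here are 10 targets and feedback regulators of the Wnt pathway, namely Rspo3, Lgr4, Rnf43, Znrf3, Axin2, Nkd1, Sp5, Ascl2, Ccnd1 and Myc, chosen by name from the 39179 genes of the expression table. They were measured by RNA sequencing of mouse pylorus, the outlet of the stomach, in 3 Sox2 KO and 3 Sox2 WT libraries. Sox2 KO mice carried the tamoxifen-activated recombinase CreER at Rosa26 together with floxed Sox2 (Rosa26CreER; Sox2 fl/fl). Sox2 WT mice carried the same floxed alleles and an unmodified Rosa26 locus, so their Sox2 gene was floxed and intact. All mice were of a C57BL/6 x 129 mixed strain, received tamoxifen at 8 weeks of age and gave tissue 2 weeks later; the series text states 10 weeks, whereas the age label of every sample reads 8 weeks. Rosa26 is active in most cell types, so recombination was not restricted to the epithelium, and effects of CreER itself cannot be told apart from loss of Sox2. The muscle layer was peeled off after a cold incubation, and RNA came from epithelium with mesenchyme. Whether each library came from its own animal is not in the labels, and the p-values then speak of the spread among libraries, which may be technical. The Sox2 WT libraries held both sexes (below), so they were not all from the same animal.

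In canonical Wnt signalling, Wnt ligands bind Frizzled and LRP receptors, beta-catenin escapes destruction in the cytoplasm, and it then joins TCF/LEF factors on DNA to switch on target genes. Many of those targets restrain the pathway again, which makes their RNA a common readout of its activity. In the pyloric glands Wnt and R-spondin signals from the surrounding mesenchyme sustain stem and progenitor cells at the gland base.

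Reads recovered from the deposited values summed to at least 29661961 in each Sox2 KO library and to between 21923203 and 27432691 in the Sox2 WT libraries. Values of a group are given in the order of replicates 1 to 3. Sox2 itself was at 0.342, 0.210 and 0.420 RPKM (reads scaled to gene length and library size) in Sox2 KO replicates 1 to 3, against 11.1, 9.03 and 10.9 RPKM in the 3 Sox2 WT replicates. It was thus far lower in every library labelled Sox2 KO (log2 fold change -3.72, SE 0.147, limma adjusted p = 0.000293; exact two-sided permutation p = 0.1, the smallest that 3 against 3 allows). By Xist and the Y-linked gene Ddx3y, the 3 Sox2 KO libraries and Sox2 WT replicate 1 were male and Sox2 WT replicates 2 and 3 were female. A fit with sex as a covariate therefore sets the Sox2 KO libraries against Sox2 WT replicate 1 alone. Surface and gland mucous genes of the stomach summed to between 135000 and 195000 RPKM in Sox2 KO and between 117000 and 174000 RPKM in Sox2 WT. Of the intestinal markers, the enzyme gene Sis was listed at 0 in every library, and Cdx2 and Muc2 were below the filter. Vil1 was at 78.0 to 82.9 RPKM in Sox2 KO and 52.9 to 92.2 RPKM in Sox2 WT. Fabp2 was at 17.6 to 18.3 RPKM in Sox2 KO and 16.6 to 28.5 RPKM in Sox2 WT. The enzyme gene Alpi was at 2.25 to 6.76 RPKM in Sox2 KO and 6.27 to 17.6 RPKM in Sox2 WT. Parietal and chief cell genes varied most, at 5120, 6900 and 2780 RPKM in Sox2 KO and 1930, 6770 and 853 RPKM in Sox2 WT. Immune markers summed to 63.1 to 111 RPKM in Sox2 KO and 65.6 to 123 RPKM in Sox2 WT, with 4 of the 6 above the filter. Most of each sum came from Lyz2, at 38.4 to 73.0 RPKM in Sox2 KO and 41.8 to 87.7 RPKM in Sox2 WT. Cd3e was at most at 0.261 RPKM and Cd79a at most at 0.314 RPKM. Intestinal markers together summed to 103 to 104 RPKM in Sox2 KO and 77.4 to 139 RPKM in Sox2 WT. Pancreatic enzyme markers summed to 289 to 456 RPKM in Sox2 KO and 507 to 540 RPKM in Sox2 WT, nearly all from Cela1. The other pancreatic markers were at or near 0, with Cpa1 listed at 0, Prss1 at most at 0.126 RPKM and Pnlip at most at 0.1 RPKM.

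All 10 genes were expressed above the filter for testing, a mean of 0.5 RPKM over the 6 libraries, and none passed the test between Sox2 KO and Sox2 WT. Each fold change is the Sox2 KO mean minus the Sox2 WT mean of log2(RPKM + 0.5), a scale that understates changes of low genes, and p-values were adjusted over all 14045 tested genes. Limma called 0 of the 10, and 0 of the 10 had an unadjusted p under 0.05, beside 4 of all tested genes at the adjusted threshold of 0.05 (0.0285%) and 442 at an unadjusted p under 0.05 (3.15%). Limma's voom, run on the recovered reads, also called 0 of the 10, with 0 at an unadjusted p under 0.05. Other alternatives called 0 as well, but 1 of the 10 had an unadjusted limma p under 0.05 after median-of-ratios rescaling, after quantile normalization, without Sox2 KO replicate 1 and without Sox2 WT replicate 2. Without Sox2 KO replicate 3 there were 2, Ccnd1 (log2 fold change -0.44, limma adjusted p = 0.778) and Lgr4 (log2 fold change 0.33, limma adjusted p = 1). Values of the groups overlapped in each of the 10 genes, whereas they did not overlap in 995 of the tested genes (7.08%). The fold change was positive in 7 and negative in 3 of the 10, with a median of 0.08, beside 7980 positive of 14045 and a median of 0.02 over all tested genes. The limma adjusted p of each of the 10 was 0.9995.

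**Figure D1:**
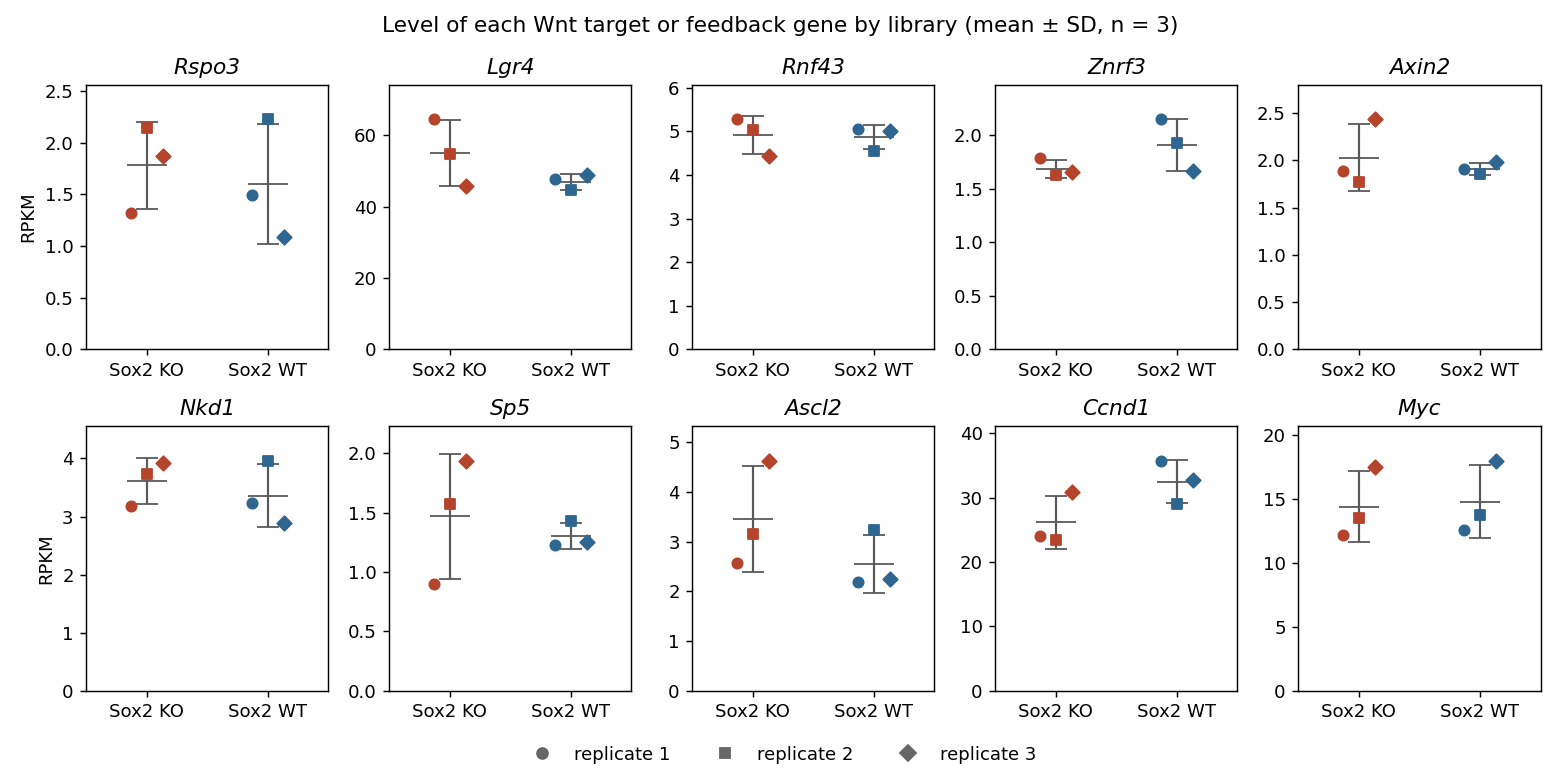
RPKM (y axis, from 0) of the 10 genes in the 3 Sox2 KO libraries (red) and the 3 Sox2 WT libraries (blue), with replicates 1 to 3 as circle, square and diamond and the mean ± SD in grey. The groups overlap in each panel.

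Among levels per length, Lgr4 was the highest of the 10 and Sp5 the lowest. Lgr4 averaged 51.0 RPKM over the 6 libraries, Ccnd1 29.3 RPKM, Myc 14.6 RPKM and Rnf43 4.89 RPKM, and the ranges of these 4 genes did not overlap each other. Below them came Nkd1 at 3.49 RPKM, Ascl2 at 3.01 RPKM, Axin2 at 1.97 RPKM, Znrf3 at 1.80 RPKM, Rspo3 at 1.69 RPKM and Sp5 at 1.39 RPKM, and in this lower part each gene's range overlapped that of its neighbour. Ascl2, at up to 4.63 RPKM, also reached into the range of Rnf43, which went down to 4.45 RPKM. The reads behind a value ran from 56 for Sp5 in Sox2 KO replicate 1 to 11266 for Lgr4 in the same library.

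At the cell surface, R-spondins bind LGR receptors and take the E3 ubiquitin ligases RNF43 and ZNRF3 off the membrane, which leaves more Frizzled receptor in place. Rspo3 (ENSMUSG00000019880, chromosome 10, 29452416 to 29535867, mm10) encodes such an R-spondin, secreted in the mouse antrum by stromal cells next to the glands. It was at 1.32, 2.15 and 1.88 RPKM in Sox2 KO replicates 1 to 3, against 1.49, 2.22 and 1.08 RPKM in the 3 Sox2 WT replicates. The lowest and the highest library were both Sox2 WT, and the Sox2 KO values lay between them. The log2 fold change was 0.14 (SE 0.233, 95% interval -0.41 to 0.68). It was -0.05 without Sox2 WT replicate 3, the lowest library for Rspo3, where endothelial markers, all 6 of them detected, also had their lowest summed level (23.3 RPKM, beside 26.5 to 33.4 RPKM in Sox2 KO and 32.1 and 34.7 RPKM in the other Sox2 WT libraries). Fibroblast markers, all 8 detected, likewise summed to between 467 and 512 RPKM in Sox2 KO and to between 413 and 551 RPKM in Sox2 WT, with 413 RPKM in Sox2 WT replicate 3. In Sox2 KO replicate 1, the second lowest library for Rspo3, endothelial markers summed to 33.4 RPKM and fibroblast markers to 512 RPKM. Each sum was the highest of the Sox2 KO libraries. Smooth muscle markers had their lowest sums in the libraries lowest for Rspo3, 500 RPKM in Sox2 KO replicate 1 and 533 RPKM in Sox2 WT replicate 3. In the other libraries the order of the sums was the reverse of that of Rspo3. Smooth muscle sums were 666 RPKM in Sox2 WT replicate 2, the library highest for Rspo3, and 741 RPKM in Sox2 KO replicate 2. They were 797 RPKM in Sox2 KO replicate 3 and 831 RPKM in Sox2 WT replicate 1, where Rspo3 was at 1.49 RPKM. The part of these markers in the level of Rspo3 was not tested. In bulk tissue, fewer cells of a type and less RNA per cell cannot be told apart. Rspo3 shares 404 exon bases with the predicted gene Gm48159 on the other strand, and the strandedness of the libraries is not given in the sources used here.

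Lgr4 (ENSMUSG00000050199, chromosome 2, 109917647 to 110014257, mm10) encodes the R-spondin receptor that is widely expressed in epithelia. Its level was 64.5, 54.7 and 46.0 RPKM in Sox2 KO replicates 1 to 3, against 47.7, 44.6 and 48.9 RPKM in the 3 Sox2 WT replicates. Sox2 KO replicates 1 and 2 lay above all Sox2 WT libraries and Sox2 KO replicate 3 lay inside their range. The Sox2 KO mean of 55.0 ± 9.27 RPKM compared with 47.0 ± 2.21 RPKM in Sox2 WT (SD, n = 3 each; log2 fold change 0.21, SE 0.141, 95% interval -0.12 to 0.54, limma adjusted p = 0.9995). With sex as a covariate the log2 fold change was 0.19. Without Sox2 KO replicate 1, the highest library, the log2 fold change was 0.09, and without Sox2 KO replicate 3 it was 0.33. Lgr5, the related receptor that marks stem cells at the base of pyloric glands, was at 2.42, 2.74 and 2.14 RPKM in Sox2 KO and 2.65, 2.46 and 2.41 RPKM in Sox2 WT (log2 fold change -0.04, SE 0.123). Its Sox2 KO libraries enclosed the Sox2 WT range.

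Rnf43 (ENSMUSG00000034177, chromosome 11, 87662722 to 87735539, mm10) and Znrf3 (ENSMUSG00000041961, chromosome 11, 5276324 to 5444847, mm10) encode the paired ligases. Rnf43 was at 5.27, 5.04 and 4.45 RPKM in Sox2 KO replicates 1 to 3, against 5.06, 4.55 and 5.00 RPKM in the 3 Sox2 WT replicates. It was the most even of the 10 genes, with a highest library only 1.19 times the lowest. Its log2 fold change was 0.01 (SE 0.111, 95% interval -0.25 to 0.27), so that on the fitted scale a fold between 0.842 and 1.21 was compatible with these libraries. Its sign flipped with median-of-ratios rescaling (-0.01) and with sex as a covariate (-0.04). Znrf3 was at 1.78, 1.62 and 1.65 RPKM in Sox2 KO replicates 1 to 3, against 2.14, 1.93 and 1.66 RPKM in the 3 Sox2 WT replicates. Sox2 WT replicates 1 and 2 were above all Sox2 KO libraries, and Sox2 WT replicate 3 fell among them. The Znrf3 log2 fold change was -0.14 (SE 0.127, 95% interval -0.43 to 0.16), and with sex as a covariate it was -0.28 (interval -0.71 to 0.15).

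Inside the cell, AXIN2 is a scaffold of the beta-catenin destruction complex and NKD1 binds Dishevelled, and each dampens the signal that induces it. Axin2 (ENSMUSG00000000142, chromosome 11, 108920349 to 108950783, mm10) was at 1.89, 1.77 and 2.43 RPKM in Sox2 KO replicates 1 to 3, against 1.91, 1.85 and 1.98 RPKM in the 3 Sox2 WT replicates. The 3 Sox2 WT libraries were nearly level, with an SD of 3.29% of their mean, and Sox2 KO replicate 3 stood above the other 5 libraries. Means were 2.03 ± 0.354 RPKM in Sox2 KO and 1.91 ± 0.0629 RPKM in Sox2 WT (SD, n = 3 each; log2 fold change 0.06, SE 0.136, 95% interval -0.26 to 0.38, limma adjusted p = 0.9995). Without Sox2 KO replicate 3 the log2 fold change was -0.05. With sex as a covariate it was 0.06 (interval -0.45 to 0.57). Axin2 shares 209 exon bases with the predicted gene Gm11670, which was listed at 0 in all 6 libraries.

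Nkd1 (ENSMUSG00000031661, chromosome 8, 88521354 to 88594884, mm10) was at 3.18, 3.74 and 3.93 RPKM in Sox2 KO replicates 1 to 3, against 3.24, 3.96 and 2.88 RPKM in the 3 Sox2 WT replicates. Both the highest and the lowest library were Sox2 WT. The log2 fold change of Nkd1 was 0.10 (SE 0.144, 95% interval -0.24 to 0.43). The 3 genes whose log2 values over the 6 libraries were most like those of Axin2 were Rnf126 (Pearson r = 0.994), Fam132b (r = 0.994) and Ppp1r11 (r = 0.986), out of 11146 genes with a mean of at least 1 RPKM. This is a description over 6 libraries, and in each of the 3 genes Sox2 KO replicate 3 was the highest library, as in Axin2.

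Among transcription factors, SP5 is induced directly by beta-catenin and represses other Wnt targets, and ASCL2 maintains LGR5-positive stem cells in the mouse intestine. The stretches just upstream of the starts of Sp5 and Axin2 are shown because TCF/LEF factors recognise short words built on CTTTG, and the genes are both classical targets. They cover 250 bases upstream of the start on the plus strand, from RefSeq (GRCm38.p6, the assembly of mm10), at chr2:70474673-70474922 for Sp5 and chr11:108920099-108920348 for Axin2. Capitals mark CTTTG on either strand, with the longer word CTTTGAT in capitals throughout.
Sp5: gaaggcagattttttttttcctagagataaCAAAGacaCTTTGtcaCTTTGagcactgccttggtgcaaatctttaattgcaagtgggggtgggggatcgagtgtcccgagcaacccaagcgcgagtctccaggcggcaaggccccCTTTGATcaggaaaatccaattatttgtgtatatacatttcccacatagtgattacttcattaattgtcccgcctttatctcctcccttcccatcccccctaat
Axin2: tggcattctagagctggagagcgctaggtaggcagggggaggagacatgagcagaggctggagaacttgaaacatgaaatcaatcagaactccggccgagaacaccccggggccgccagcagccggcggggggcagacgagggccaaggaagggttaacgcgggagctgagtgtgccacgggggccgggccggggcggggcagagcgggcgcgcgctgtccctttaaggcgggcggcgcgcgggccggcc

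Upstream windows were in the RefSeq table for 6 of the 10 genes (Axin2, Rnf43 with 2 windows, Nkd1, Sp5, Ascl2 and Lgr4); those of Znrf3, Rspo3, Ccnd1 and Myc were not used here. CTTTGAT, searched on both strands, was found in the Sp5 window alone among these 7, beside 3.21% of 32851 windows of the same length. CTTTGAA was in 0 of the 7, beside 4.46%. The core CTTTG, which also lies inside both longer words and was added to the search after the sequences were seen, occurred 4 times upstream of Sp5 and 0 times in the other 6 windows; 0.773% of all windows hold it at least 4 times. A match is a description of letters, and its absence from 250 bases says nothing about TCF/LEF binding elsewhere.

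Sp5 (ENSMUSG00000075304, chromosome 2, 70474923 to 70477729, mm10), the gene next to that cluster of CTTTG words, was at 0.896, 1.57 and 1.94 RPKM in Sox2 KO replicates 1 to 3, against 1.22, 1.43 and 1.25 RPKM in the 3 Sox2 WT replicates. Sox2 KO libraries held both its lowest and its highest value, and the Sox2 WT libraries sat between them. Reads numbered 56, 96 and 138 in Sox2 KO and 62, 84 and 67 in Sox2 WT, so that counting alone gives an SD of 8.51% to 13.4% of a value. The SD between Sox2 KO libraries was 36.0% of their mean, and that between Sox2 WT libraries 8.51%. The log2 fold change of Sp5 was 0.09 (SE 0.213, 95% interval -0.41 to 0.59), and -0.08 without Sox2 KO replicate 3.

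Ascl2 (ENSMUSG00000009248, chromosome 7, 142966829 to 142969264, mm10) had the largest log2 fold change of the 10 genes. It was at 2.57, 3.17 and 4.63 RPKM in Sox2 KO replicates 1 to 3, against 2.19, 3.23 and 2.26 RPKM in the 3 Sox2 WT replicates. Sox2 KO replicate 3 exceeded every other library, while Sox2 WT replicate 2 lay above Sox2 KO replicates 1 and 2. Means were 3.46 ± 1.06 RPKM in Sox2 KO and 2.56 ± 0.584 RPKM in Sox2 WT (SD, n = 3 each; log2 fold change 0.35, SE 0.220, 95% interval -0.16 to 0.87, limma adjusted p = 0.9995, unadjusted p = 0.151). Without Sox2 KO replicate 3 the log2 fold change was 0.15, and without Sox2 KO replicate 1 it was 0.52. The fit with sex as a covariate gave Ascl2 0.52 (interval -0.28 to 1.32).

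**Figure D2:**
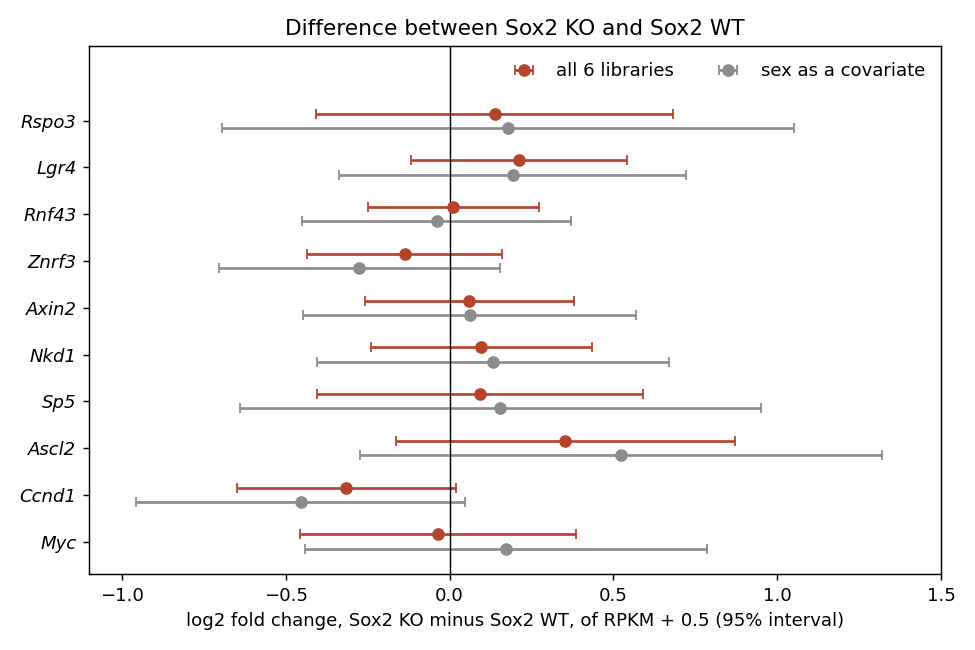
Log2 fold change (x axis, Sox2 KO minus Sox2 WT, of RPKM + 0.5) of the 10 genes with its 95% interval from limma, for all 6 libraries (red) and with sex as a covariate (grey). Every interval includes 0, and the estimates for all libraries run from -0.31 for Ccnd1 to 0.35 for Ascl2.

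Ccnd1 and Myc drive the cell cycle downstream of Wnt and of many other signals. Ccnd1 (ENSMUSG00000070348, chromosome 7, 144929931 to 144939925, mm10), which encodes cyclin D1, was at 24.1, 23.4 and 31.0 RPKM in Sox2 KO replicates 1 to 3, against 35.8, 29.1 and 32.7 RPKM in the 3 Sox2 WT replicates. Sox2 KO replicates 1 and 2 were below all Sox2 WT libraries, and Sox2 KO replicate 3 lay above Sox2 WT replicate 2. Means were 26.2 ± 4.18 RPKM in Sox2 KO and 32.5 ± 3.35 RPKM in Sox2 WT (SD, n = 3 each; log2 fold change -0.31, SE 0.143, 95% interval -0.65 to 0.02, limma adjusted p = 0.9995). Its unadjusted limma p of 0.0617 was the smallest of the 10 and ranked 542 among the tested genes. That p was under 0.05 in 4 alternatives: after median-of-ratios rescaling, after quantile normalization, without Sox2 KO replicate 3 and without Sox2 WT replicate 2. The fold change stayed negative in each of the 16 alternatives, between -0.455 with sex as a covariate and -0.241 without Sox2 KO replicate 2, with limma adjusted p from 0.778 to 1. Ccnd1 shares 1100 exon bases with the oppositely transcribed gene Oraov1, whose level ran from 7.23 to 7.96 RPKM in Sox2 KO and from 6.56 to 7.44 RPKM in Sox2 WT. Whether the counting separated the reads of the pair there is not given in the labels.

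Myc (ENSMUSG00000022346, chromosome 15, 61985391 to 61990374, mm10), which encodes a growth-promoting transcription factor, was at 12.2, 13.6 and 17.5 RPKM in Sox2 KO replicates 1 to 3, against 12.6, 13.8 and 18.0 RPKM in the 3 Sox2 WT replicates. The groups covered nearly the same range. The log2 fold change was -0.04 (SE 0.180, 95% interval -0.46 to 0.39), and 0.17 with sex as a covariate. Without Sox2 WT replicate 3 it was 0.11 and without Sox2 KO replicate 1 it was 0.07.

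Libraries also differed within a group, several genes at a time. In Sox2 KO replicate 3, 7 of the 10 genes were above their mean over the 6 libraries, and Axin2, Sp5 and Ascl2 had their highest value there, at deviations of 0.25, 0.39 and 0.59 on the log2(RPKM + 0.5) scale. In Sox2 KO replicate 1, 2 of the 10 were above their mean, with Lgr4 at 0.35 and Rnf43 at 0.10, both at their highest, while Sp5 was at -0.41. Markers of dividing cells, all 10 of them detected and tested, summed to 119, 141 and 216 RPKM in Sox2 KO replicates 1 to 3, against 166, 130 and 144 RPKM in the 3 Sox2 WT replicates. Their median deviation was 0.50 in Sox2 KO replicate 3 and -0.31 in Sox2 KO replicate 1. Sox2 KO replicate 3 was thus the highest library for these markers as well as for Axin2, Sp5 and Ascl2, but the lowest for Rnf43 (-0.12). Sox2 WT replicate 1 was second highest for the markers. Axin2, Sp5 and Ascl2 were below their means there, at -0.03, -0.11 and -0.35, the last being the lowest value of Ascl2. The part of dividing cells in those levels was not tested. Smooth muscle markers, all 8 detected, summed to between 500 and 797 RPKM in Sox2 KO and to between 533 and 831 RPKM in Sox2 WT, so that muscle RNA was present after the muscle layer had been removed.

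**Figure D3:**
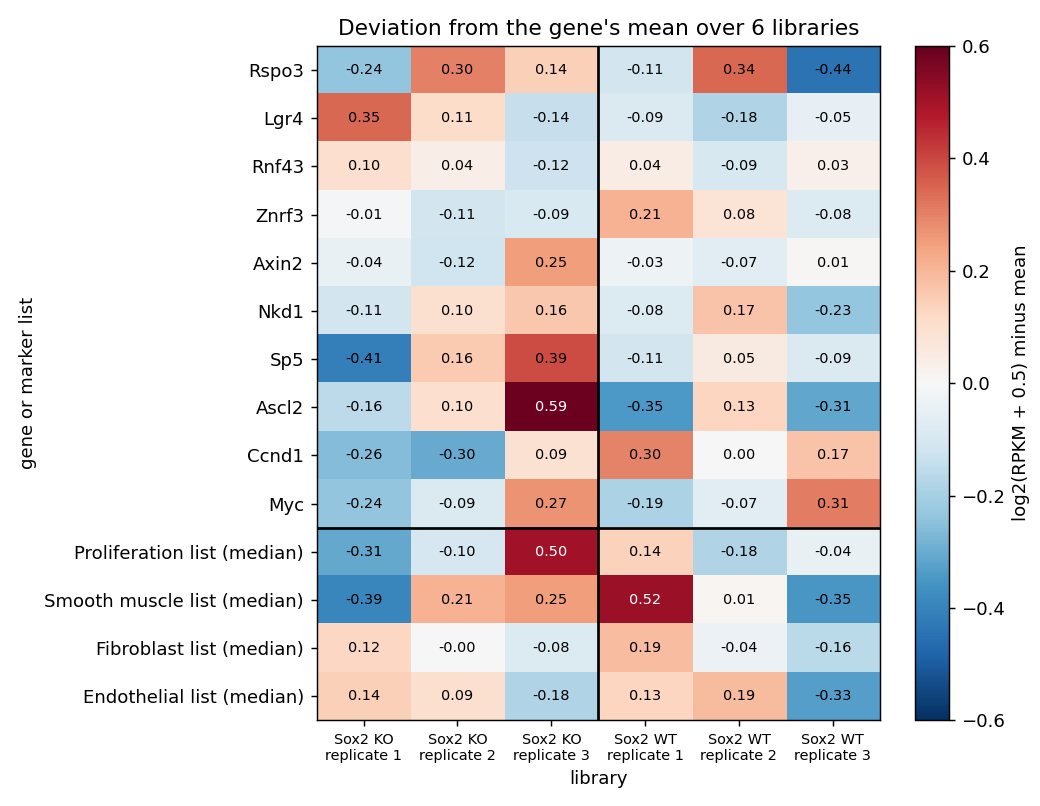
Deviation of each gene (rows) from its own mean over the 6 libraries (columns, Sox2 KO left of the line) on the log2(RPKM + 0.5) scale, with the median deviation of 4 marker lists below. Sox2 KO replicate 3 holds the highest values of Axin2, Sp5 and Ascl2 (0.25, 0.39 and 0.59) and of the proliferation list (0.50).

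The rest of the pathway was described from 8 lists of 92 further genes. Of these, 57 passed the filter and limma called 0. An unadjusted limma p under 0.05 was found in 3 of the 57, beside 3.15% of all tested genes. Voom on the recovered reads also called 0. The log2 fold change was negative in 39 and positive in 18 of the 57, with a median of -0.07, beside 6065 negative of 14045 tested genes. The number of negative ones was 43 after median-of-ratios rescaling, 48 after quantile normalization and 52 with voom, and without single libraries it ran from 33 (without Sox2 KO replicate 3) to 45 (without Sox2 KO replicate 1). Groups did not overlap in 7 of the 57, against 7.08% of all tested genes.

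Of 19 Wnt ligand genes, 6 were tested (3 positive, 3 negative, median -0.01, and -0.09 with sex as a covariate) and 4 were listed at 0 throughout. The most abundant ligand gene was Wnt11, of the branch that signals largely without beta-catenin, at 7.13, 6.52 and 4.20 RPKM in Sox2 KO and 8.61, 6.13 and 11.0 RPKM in Sox2 WT (log2 fold change -0.49, SE 0.250, limma adjusted p = 0.9995). Its groups overlapped through Sox2 WT replicate 2. Wnt4 followed, with a log2 fold change of 0.02 (SE 0.127). The secretion genes Wls, which carries Wnt proteins to the surface, and Porcn, which acylates them, had log2 fold changes of 0.02 and 0.03. Among Frizzled receptors and co-receptors, 13 of 15 were tested, 2 positive and 11 negative with a median of -0.11, and the most abundant, Fzd5 (0.03, SE 0.150) and the co-receptor gene Lrp5 (0.03, SE 0.175), were the 2 positive ones. The median of these receptors was -0.03 without Sox2 WT replicate 1, -0.23 with sex as a covariate and -0.20 with voom.

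Of 13 secreted inhibitor genes 3 passed the filter, with Sfrp1, which encodes a Wnt-binding protein, at a log2 fold change of 0.03 (SE 0.218) and the Dickkopf-related gene Dkk3 at -0.18 (SE 0.108). Dkk3 was at 8.05, 7.06 and 8.50 RPKM in Sox2 KO and 9.15, 8.54 and 9.21 RPKM in Sox2 WT, without overlap and with a limma adjusted p of 0.9995. In the destruction complex and its transducers (11 of 12 tested, 4 positive, 7 negative, median -0.07), Ctnnb1, the beta-catenin gene, was at 210, 187 and 160 RPKM in Sox2 KO and 178, 154 and 217 RPKM in Sox2 WT (log2 fold change 0.03, SE 0.172). The kinase gene Csnk1a1, whose product primes beta-catenin for destruction, had a log2 fold change of 0.11 (SE 0.0952, limma adjusted p = 0.9995). It was at 43.6, 41.7 and 39.6 RPKM in Sox2 KO and 38.1, 38.1 and 39.4 RPKM in Sox2 WT, without overlap and with Sox2 KO above. Nuclear effectors (10 of 12 tested, 4 positive, 6 negative, median -0.02, and -0.11 without Sox2 KO replicate 1) were led by Pygo2, a beta-catenin co-activator gene, at 0.05 (SE 0.120) and the co-repressor gene Tle3 at -0.28 (SE 0.137).

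**Figure D4:**
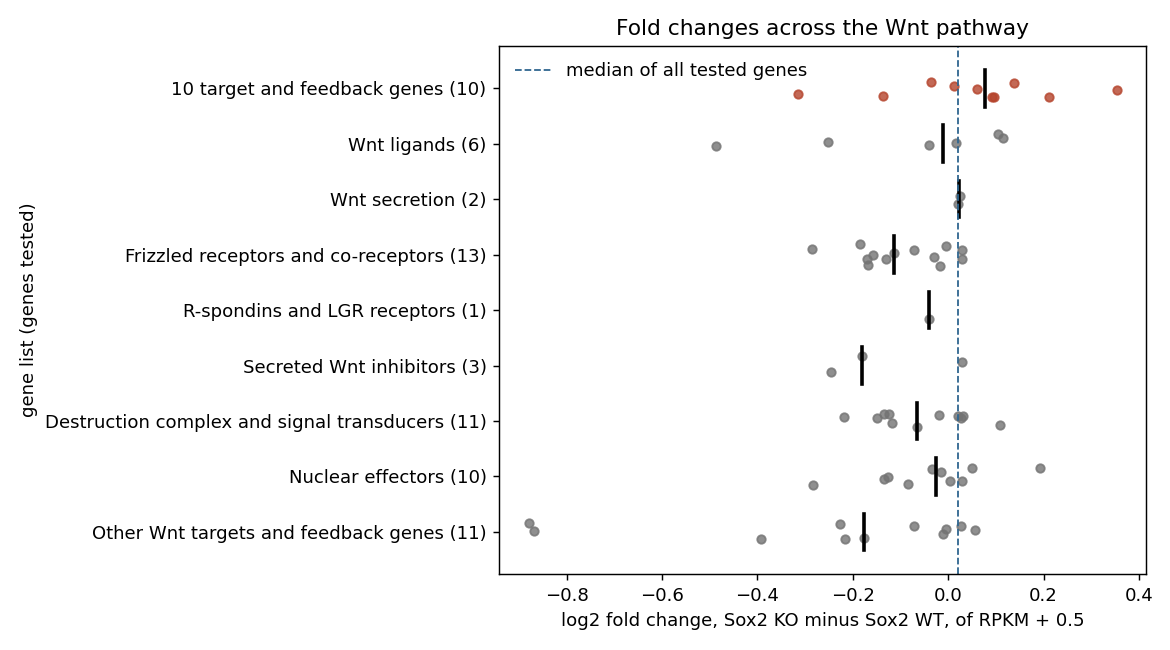
Log2 fold change (x axis, Sox2 KO minus Sox2 WT, of RPKM + 0.5) of each tested gene in the 10 target and feedback genes (red) and the 8 further lists (grey), with the number tested in brackets, a black bar at each median and a dashed line at the median of all tested genes, 0.02. The lowest 2 points, near -0.88 and -0.87, are Fosl1 and Ccnd2.

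Other Wnt targets and feedback genes had 11 of 14 tested, 2 positive and 9 negative, with a median of -0.18. That median was -0.08 without Sox2 KO replicate 3, -0.09 without Sox2 WT replicate 1, -0.07 with no filter, -0.27 with sex as a covariate and -0.29 with voom. The most abundant was Ccnd2, the cyclin D2 gene and paralog of Ccnd1, at 19.6, 16.6 and 20.5 RPKM in Sox2 KO, against 42.2, 33.1 and 30.3 RPKM in Sox2 WT. Each Sox2 KO library lay below each Sox2 WT library, and the Sox2 KO mean was 0.538 times the Sox2 WT mean. The log2 fold change was -0.87 (SE 0.151, 95% interval -1.22 to -0.51), and it did not pass (limma adjusted p = 0.281, unadjusted p = 5.99e-04, rank 30 of 14045). Its adjusted p ran from 0.254 to 0.908 over 16 alternatives, with log2 fold changes from -1.14, with sex as a covariate, to -0.732. Ccnd3, the cyclin D3 gene and in none of the lists, was taken in after the values of Ccnd2 were seen. It was at 8.27, 7.70 and 8.84 RPKM in Sox2 KO and 8.24, 8.32 and 8.36 RPKM in Sox2 WT (log2 fold change -0.01, SE 0.0984).

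**Figure D5:**
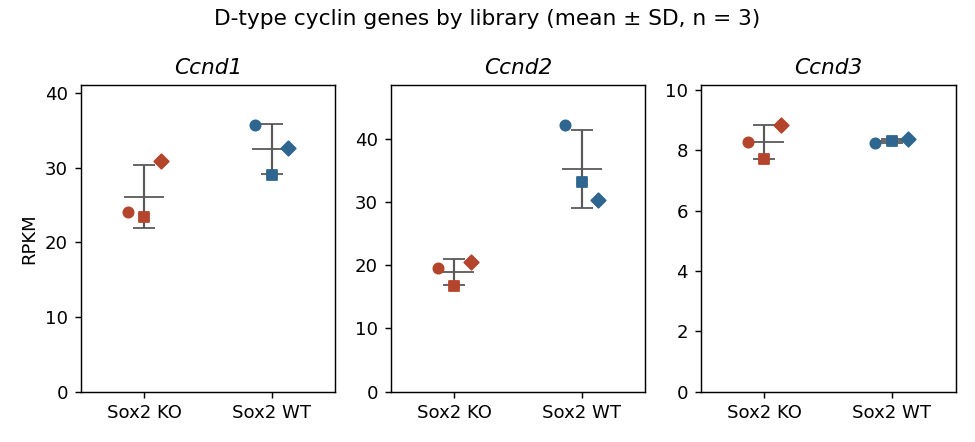
RPKM (y axis, from 0) of the 3 D-type cyclin genes in the Sox2 KO libraries (red) and Sox2 WT libraries (blue), with replicates 1 to 3 as circle, square and diamond and the mean ± SD in grey. The groups overlap for Ccnd1 and Ccnd3; for Ccnd2 the Sox2 KO libraries reach 20.5 RPKM at most and the Sox2 WT libraries 30.3 RPKM at least.

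Besides Ccnd2, Ephb3 and Fosl1 had an unadjusted p under 0.05 in that list and are named after their values were seen. Ephb3, which encodes an ephrin receptor that positions cells along crypts of the mouse intestine, was at 5.36, 5.68 and 6.18 RPKM in Sox2 KO and 7.02, 8.76 and 7.35 RPKM in Sox2 WT (log2 fold change -0.39, SE 0.121, limma adjusted p = 0.9995). Fosl1, an AP-1 subunit gene, was at 1.06, 0.869 and 1.80 RPKM in Sox2 KO and 2.04, 1.84 and 4.65 RPKM in Sox2 WT (log2 fold change -0.88, SE 0.332, limma adjusted p = 0.9995). Neither gene's groups overlapped. Sox9, the next most abundant of the list after Ccnd2 and a transcription factor gene of progenitor cells, overlapped, at 20.6, 18.4 and 19.1 RPKM in Sox2 KO and 21.9, 17.9 and 18.9 RPKM in Sox2 WT.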

How the data were processed

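The authors deposited RPKM values for 39179 Ensembl genes in 6 libraries, and the single-library tables equal the columns of the series table. The submitters' processing notes name CASAVA 1.7, STAR and the build mm10; the sources used here do not give the counting tool, the annotation or the strandedness. Coordinates came from GENCODE mouse release M21 (GRCm38, which is mm10), which matched 37607 identifiers. The test was limma 3.58.1 (R 4.3.3) on log2(RPKM + 0.5), allowing a variance trend, for genes with a mean of at least 0.5 RPKM; of rows sharing a symbol the highest was kept. Benjamini-Hochberg adjusted p-values were held to 0.05. Whole reads were recovered as the smallest whole numbers in proportion to the RPKM, after 1 scale per library. Values of 23538 genes came out whole within 1e-05 reads. The reads of the 10 genes imply lengths of 0.779 to 1.315 times the annotated exon length. Sums may be too low where reads share a common factor. The fit was tested on simulated data with independent noise for each gene. The simulation held no sex difference and no shift shared by the genes of a library, so it cannot speak for those.

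The 10 genes and the lists were chosen with earlier results of these data known. Named besides them are Sox2, the 2 most abundant tested genes of each list and any that passed, and the 3 genes most like Axin2. The intestinal, pancreatic, immune and gastric markers were named after their values were seen. Lgr5 was the 1 tested gene of the list of further R-spondins and LGR receptors. The alternatives were pseudocounts of 0.1 and 1, dropping the filter or raising it to 1 RPKM, median-of-ratios rescaling, quantile normalization, dropping the variance trend, a replicate block, sex as a covariate, each library left out and, added after the data were seen, voom on recovered reads.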

Additional observations from a re-analysis of the deposited data

How the results depend on the processing

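In each of the 16 alternatives limma called 0 of the 10 genes and 0 of the further pathway genes tested, and Sox2 passed in each. Of all tested genes, 4 were called; with sex as a covariate 1 was, with voom on recovered reads 8 were, and without single libraries between 1 and 8. Deviations from the group mean correlated little between same-numbered libraries (r = 0.009, 0.097 and -0.074 for numbers 1 to 3). Between differently numbered libraries r ran from -0.158 to 0.165. With 3 libraries a group, these values cannot decide whether the numbers pair samples. The fit with a replicate block called 1 gene. Signs flipped for 5 of the 10. Leaving out single libraries gave log2 fold changes from -0.0517 (without Sox2 KO replicate 3) to 0.134 for Axin2, from -0.0804 (without Sox2 KO replicate 3) to 0.322 for Sp5, from -0.0477 (without Sox2 WT replicate 3) to 0.344 for Rspo3, from -0.0358 (without Sox2 KO replicate 1) to 0.076 for Rnf43 and from -0.181 to 0.109 (without Sox2 WT replicate 3) for Myc. Rnf43 was also below 0 without Sox2 KO replicate 2 or Sox2 WT replicate 2, after median-of-ratios rescaling (-0.00883), with sex as a covariate (-0.0394) and with voom (-0.0533), and Myc was above 0 without Sox2 KO replicate 1 and with sex as a covariate (0.172). The cause of these changes was not tested. The median of the 10 ran from -0.01 without Sox2 KO replicate 3 to 0.14 with sex as a covariate. With 3 libraries a group, the 95% interval of the fold of RPKM + 0.5 ran from 0.842 to 1.21 for Rnf43, the narrowest of the 10, and from 0.754 to 1.61 for Rspo3, the widest on the log2 scale. Sp5 and Rspo3, at 56 to 152 reads, also carry the largest counting error.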
